A study of Mus musculus with 27 samples.

Results

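Complement is a set of plasma and cell-surface proteins that mark and lyse foreign or damaged cells, and RNA for 9 of its components was followed here in the mouse uterus. The members were the genes C3, C2, Cfb, Cfi, C1qa, C1qb, C3ar1, Cd55 and Cd59a, chosen by the gene name that the scanner files give each probe. They had 15 probes between them and made up 9 of the 21866 genes tested. The mice were ovariectomised females of C57BL/6 (B6), C3H/HeJ (C3H) and the F1 of both strains, 8 weeks old, rested for 1 to 2 weeks before a single intraperitoneal injection. In each strain the groups were E2 24 h and E2 2 h, which received 17β-estradiol (E2, an estrogen of the ovary) at 40.0 µg per kg in 0.1 ml saline with 0.25% ethanol, and vehicle, which received the same fluid without E2 and carries no time in the sample labels. Each of the 9 groups had 3 arrays, 27 in all. The tissue of each group was from 3 animals, and the labels do not say which animal each array came from. The p-values therefore speak of the spread among these arrays, which may be technical. Whole uterus was measured, where fewer cells of a type and less RNA per cell cannot be told apart.

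Complement is started by 3 routes that meet at C3. C1q, whose chains include those encoded by C1qa and C1qb, opens the classical route. C2 carries the protease of the classical and lectin C3 convertase, and factor B, encoded by Cfb, carries that of the alternative convertase. Factor I, encoded by Cfi, is a plasma protease that cuts C3b and C4b once they are bound by a cofactor. CD55, or decay-accelerating factor, speeds the breakdown of both convertases on the cell surface, and CD59 blocks the last step of the membrane attack pore. C3ar1 encodes the receptor for the C3a fragment. In rodents the estrogen-treated uterus is a known source of C3, made by its epithelium.

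The 60-base probes that carry the findings are shown so that each value can be tied to the transcript stretch it reports. The coordinates are those of the scanner files, on build mm7, with each sequence written 5′ to 3′ in lower case and no letter singled out. The C3 probe lies at chr17:55414567-55414626 (minus strand), the Cfb probe at chr17:32952681-32953037 (minus), the C2 probe at chr17:32958754-32958813 (minus) and the Cfi probe at chr3:129714547-129714606 (plus). The Cd55 probe is listed over chr1:130344430-130352416 (minus), a span of 7987 bases for 60 bases of probe, so the probe crosses at least 1 intron. Its second probe lies inside that span, at chr1:130351505-130351564. The 2 Cd59a probes lie at chr2:103965318-103965377 and chr2:103964800-103964859 (both plus).
C3: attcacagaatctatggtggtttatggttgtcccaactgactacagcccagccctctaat
Cfb: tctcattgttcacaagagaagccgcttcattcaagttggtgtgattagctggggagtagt
C2: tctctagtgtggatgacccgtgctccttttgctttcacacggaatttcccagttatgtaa
Cfi: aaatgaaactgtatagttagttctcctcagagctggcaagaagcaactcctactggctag
Cd55, first probe: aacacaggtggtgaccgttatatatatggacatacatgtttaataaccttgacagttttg
Cd55, second probe: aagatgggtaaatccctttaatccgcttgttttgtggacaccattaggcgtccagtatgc
Cd59a, first probe: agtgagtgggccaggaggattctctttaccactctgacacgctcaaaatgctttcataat
Cd59a, second probe: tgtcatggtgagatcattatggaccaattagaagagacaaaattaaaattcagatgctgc

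C2 and Cfb are neighbours on chromosome 17, with 5716 bases between their probes on the same strand. C1qa and C1qb are likewise close on chromosome 4, with 15771 bases between their probes. Members with several probes were represented by the probe with the highest mean signal, and the level of a probe is given as log2 of its processed signal minus the log2 75th percentile of its array, with 0 at the percentile. Among these 15 probes, 14 were well above background on every array on which they were measured. The exception was one more Cd55 probe, at chr1:130295529-130295588, which was well above background on 1 array and lay 48841 bases from the first. It was not used.

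Members differ in their 5′ sequence, and RefSeq promoters on build GRCm38.p6 were at hand for 5 of the 9. The 300-base windows of C3 and Cd55, which rose after E2, are printed with the matches of 5 motifs in capitals. The motifs, searched on both strands, were the estrogen response element half-site GGTCA, its full palindrome GGTCANNNTGACC (each full match would also hold half-sites), the C/EBP-type TTGCNNAA, the GC box GGGCGG and the TATA box TATAAA. The C3 window, chr17:57228087-57228386 (minus strand), held 2 half-sites, 1 TTGCNNAA and 1 TATAAA. The Cd55 window, chr1:130462695-130462994 (minus strand), held 2 GC boxes. Over all 32851 promoters, 40.5% held a half-site, 0.0700% the full palindrome, 10.8% TTGCNNAA, 35.7% a GC box and 13.6% TATAAA. A match describes letters only.
C3 promoter: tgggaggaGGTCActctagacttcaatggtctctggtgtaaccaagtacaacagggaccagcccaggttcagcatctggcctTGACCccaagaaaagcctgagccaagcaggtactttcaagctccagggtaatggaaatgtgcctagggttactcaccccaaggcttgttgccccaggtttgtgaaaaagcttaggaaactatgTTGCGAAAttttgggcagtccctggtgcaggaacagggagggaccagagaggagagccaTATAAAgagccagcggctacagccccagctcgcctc
Cd55 promoter: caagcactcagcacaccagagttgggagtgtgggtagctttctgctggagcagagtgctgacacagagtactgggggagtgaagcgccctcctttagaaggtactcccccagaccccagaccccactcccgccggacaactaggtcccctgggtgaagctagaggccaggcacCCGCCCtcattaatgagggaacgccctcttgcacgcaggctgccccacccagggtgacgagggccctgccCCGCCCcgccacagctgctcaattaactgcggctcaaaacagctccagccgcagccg

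The arrays were of like depth, with 72.4 to 79.4% of probes well above background. Epithelium markers (Krt18, Krt8 and 9 others) were well above background on every array, as uterus should show. Of the 27 arrays, 3 stood apart, with 436 (B6 vehicle replicate 1), 296 (C3H E2 2 h replicate 1) and 494 (C3H E2 24 h replicate 1) genes over 1 log2 unit from their group's mean, against 79 to 198 on the other arrays. The mean of 20 interferon-induced genes, as log2 distance from the mean over all arrays, was 1.79 on B6 vehicle replicate 1 and −0.24 and −0.26 on the other B6 vehicle arrays. The mean of 13 macrophage markers was 0.85 there against −0.14 and −0.09 on the other B6 vehicle arrays. On C3H E2 2 h replicate 1 it was 0.87, against −0.17 and −0.18 on replicates 2 and 3. The mean of 15 liver markers was low at 24 h, at −0.85 to −0.05 in B6, −1.95 to −1.10 in C3H and −1.96 to −1.20 in F1, and high in vehicle, at 1.73 to 3.59 in B6, 0.16 to 1.24 in C3H and 0.13 to 0.43 in F1. Albumin (Alb) and fetuin-A (Ahsg), their brightest genes, were well above background on all arrays. No slide held vehicle and 24 h arrays of the same strain. In C3H and F1 slide and E2 at 24 h cannot be told apart, and in B6, with slide as a fixed block, 3 members were higher and 2 lower at 24 h, as without it. Each C3H 2 h array was on another slide than C3H vehicle, so slide and E2 cannot be told apart there either. Values without the 3 arrays are given where a call or a count changed.

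**Figure D1:**
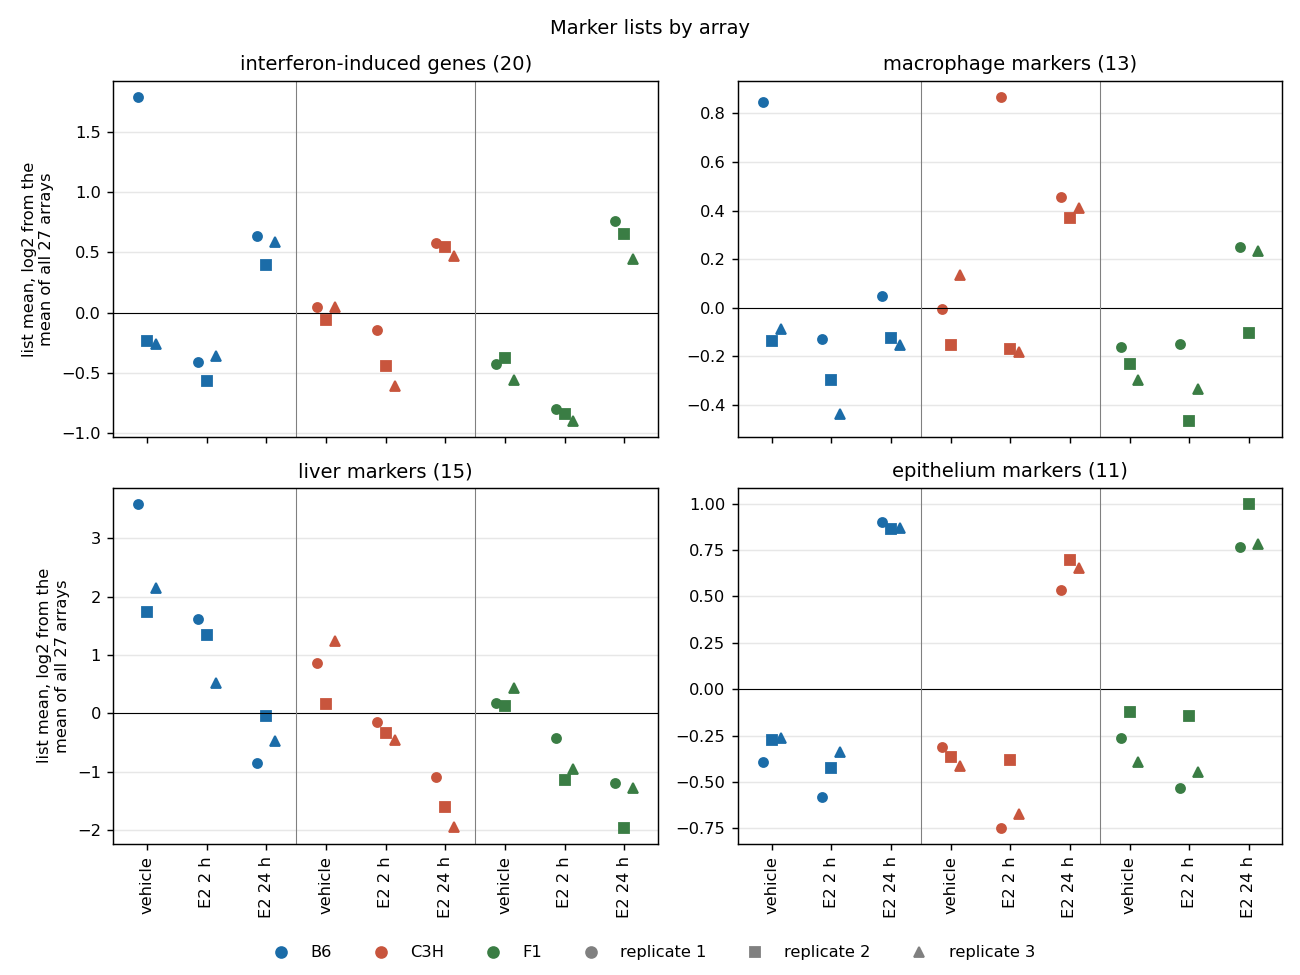
Mean of each marker list on each array (vertical axis, log2 units from the mean over all 27 arrays) by group, with strains in colour and replicates as symbols. B6 vehicle replicate 1 is highest in the interferon, macrophage and liver panels of its group, C3H E2 2 h replicate 1 is at 0.87 in the macrophage panel, and the epithelium list is highest at 24 h in each strain.

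At 24 h the alternative-route gene Cfb and the regulators Cfi and Cd55 rose in all 3 strains, C3 rose in C3H and F1, and C2 and, by 1 of its 2 probes, Cd59a fell in all 3 strains, by the limma fit (Benjamini-Hochberg adjusted p under 0.05). B6 thus had 3 members higher and 2 lower, while C3H and F1 each had 4 higher and 2 lower. These counts stand against a background in which a large share of all genes moved. At 24 h B6 had 30.8% of all genes higher and 37.1% lower, C3H had 27.1% higher and 40.1% lower, and F1 had 31.8% higher and 36.7% lower. The split of all genes depended on the scaling: with median scaling 9213 were higher and 5941 lower in B6, against 6742 and 8119 here. The number of members called was near that of genes at large, and the sizes and directions below describe the members themselves. The median log2 change of the 9 members at 24 h was −0.48 in B6, 0.29 in C3H and 0.55 in F1, beside −0.05, −0.16 and −0.03 over all genes. Without the 3 arrays that stand apart, B6 and C3H each had 4 members higher and 2 lower, and F1 had 6 higher and 2 lower. The members' median was then −0.07 in B6 and 0.33 in C3H. The epithelium list moved with the members that rose: its mean was 0.54 to 1.00 on the 24 h arrays of the 3 strains, against −0.41 to −0.12 on vehicle arrays, and 9 of its 11 genes were higher and 2 lower in each strain. The interferon list mean was 0.40 to 0.76 on the 24 h arrays, against −0.55 to 0.05 on vehicle arrays other than B6 replicate 1, which was at 1.79. Of its 20 genes, 3, 8 and 11 were higher at 24 h in B6, C3H and F1, and 15, 13 and 17 without the 3 arrays. The smooth muscle list mean was also higher, at 0.27 to 0.57 on 24 h arrays against −0.46 to −0.02 on vehicle arrays. So was the stroma list mean, at 0.49 to 0.71 against 0.06 to 0.39. The endothelium list mean was lower, at −0.46 to −0.08 against 0.09 to 0.36. The part of any of these lists' cells or genes in the members' changes was not tested.

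At 2 h fewer members had moved. Cd55 rose and Cd59a fell in each strain, and Cfi fell in C3H. C3H thus had 1 member higher and 2 lower, and the other strains 1 higher and 1 lower each. Of all genes at 2 h, B6 had 23.1% higher and 33.1% lower, C3H 24.8% higher and 35.5% lower, and F1 23.6% higher and 35.5% lower. The members' median log2 change at 2 h was −0.54 in B6, 0.18 in C3H and −0.03 in F1, beside −0.08, −0.10 and −0.10 over all genes. Without the 3 arrays that stand apart it was −0.08 in B6 and turned to −0.17 in C3H, and the counts were 1 higher and 1 lower in C3H and 1 higher and 2 lower in F1.

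**Figure D2:**
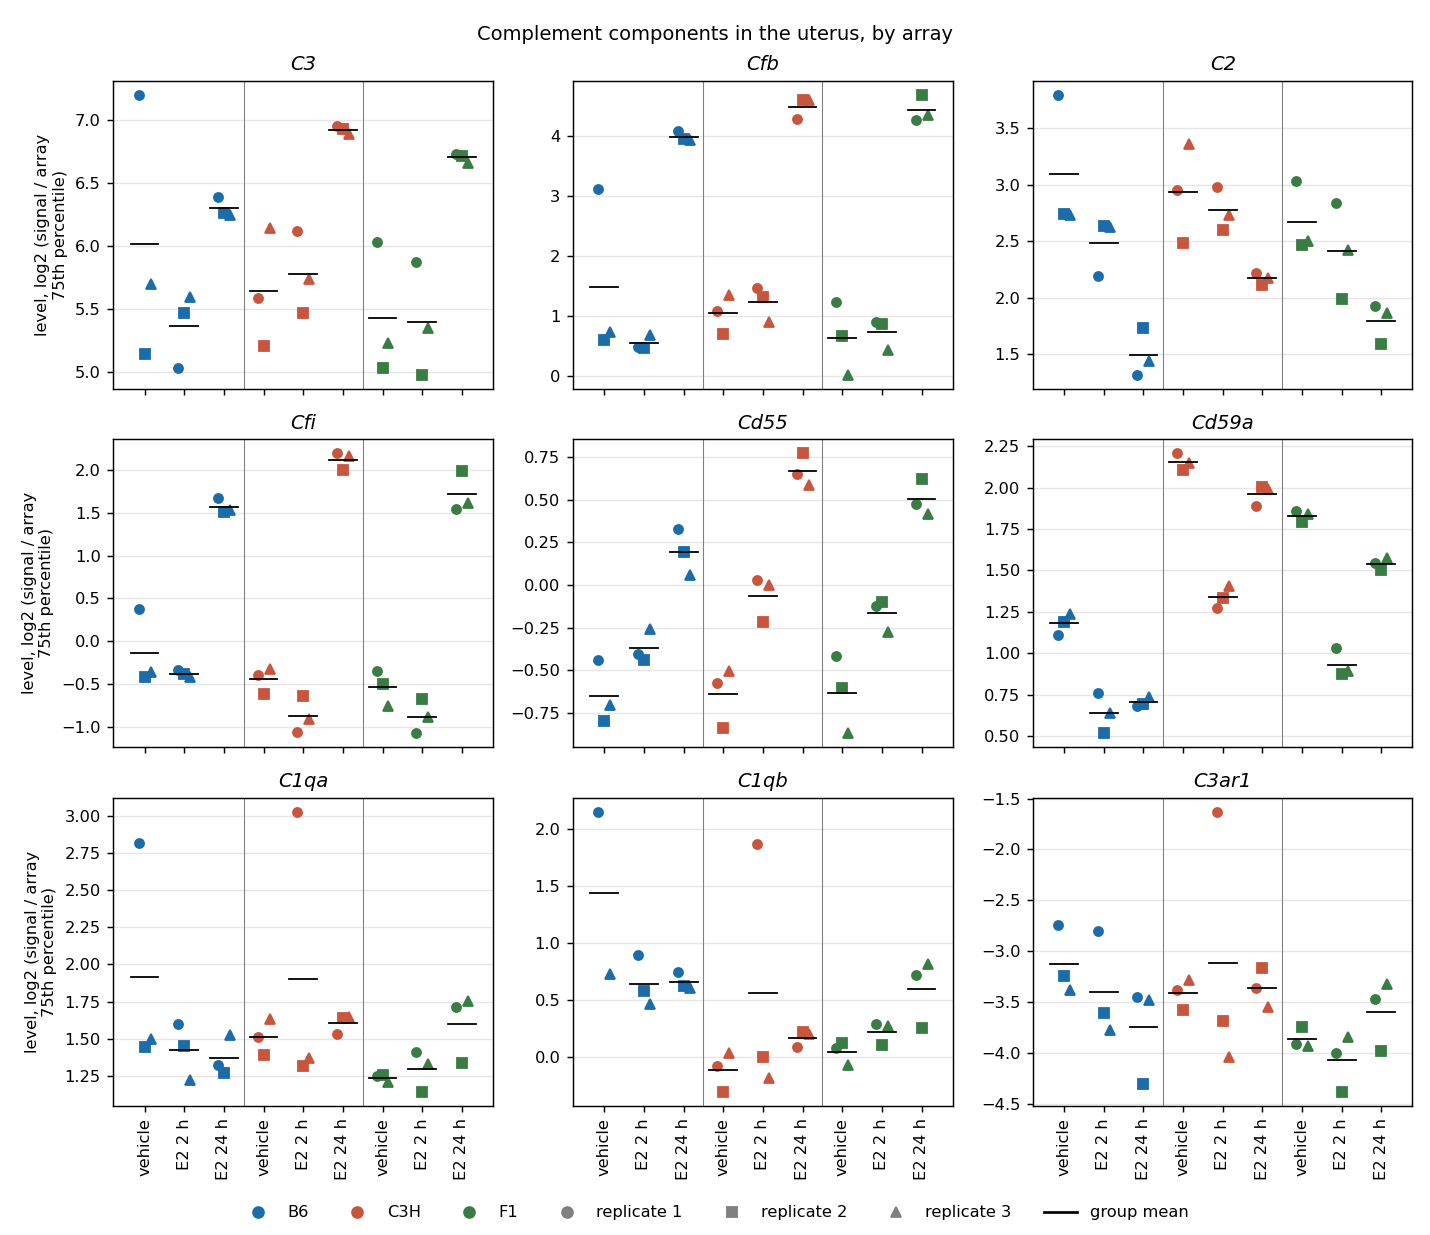
Level of each member on each array (vertical axis, log2 of signal over the array's 75th percentile; each panel has its own range) by group, in the order vehicle, E2 2 h and E2 24 h within each strain, with black bars at group means. Cfb and Cfi are higher on every 24 h array than on any vehicle array, and B6 vehicle replicate 1 stands above the other B6 vehicle arrays for C3, Cfb, C2, Cfi, C1qa and C1qb.

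**Figure D3:**
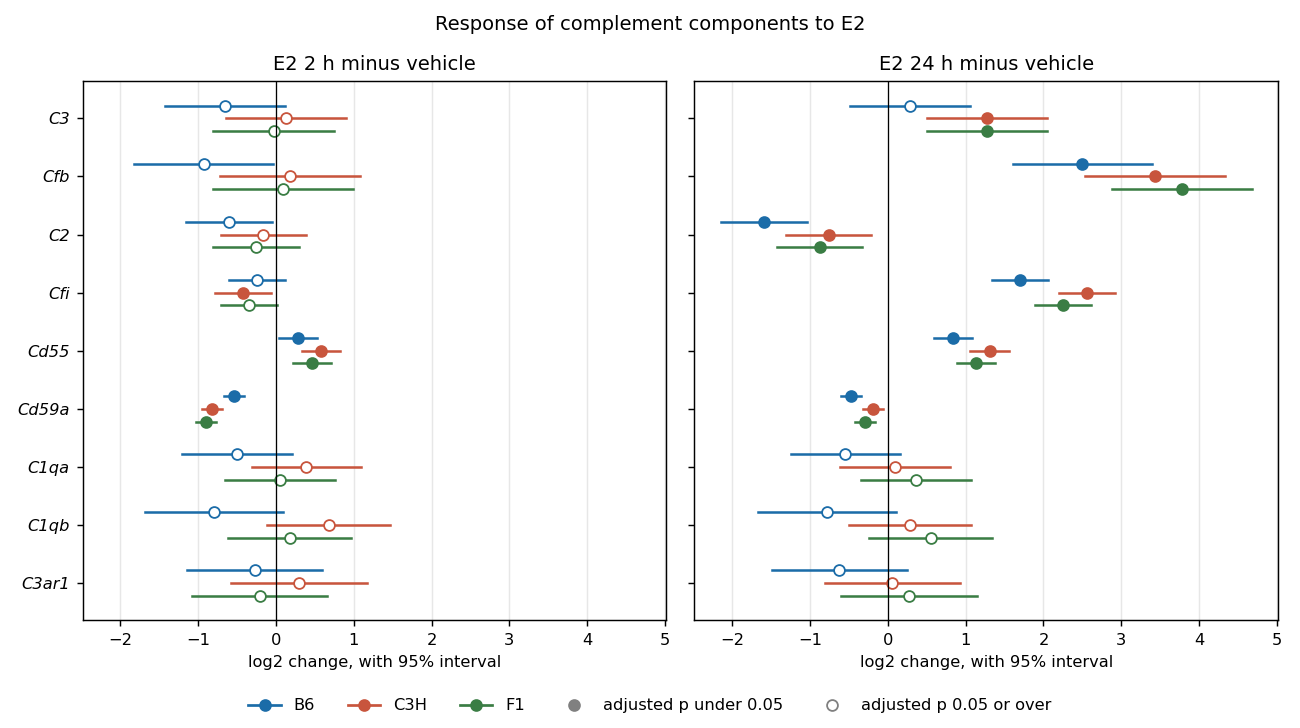
Log2 change of each member (horizontal axis) at 2 h (left) and 24 h (right) relative to vehicle, with 95% intervals from the fit over all arrays. Filled points passed an adjusted p of 0.05. Cfb and Cfi lie farthest to the right at 24 h, and C2 farthest to the left.

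Cfb showed the largest change of the 9 members. In B6 its level was 4.08, 3.94 and 3.93 at 24 h, against 3.11, 0.60 and 0.73 in vehicle. In C3H it was 4.27, 4.59 and 4.59 at 24 h, against 1.09, 0.71 and 1.36 in vehicle. In F1 it was 4.26, 4.67 and 4.33 at 24 h, against 1.24, 0.67 and 0.02 in vehicle. The E2 24 h and vehicle arrays did not overlap in any strain. The rise was 5.66-fold in B6 (log2 change 2.50, SE 0.43, adjusted p = 2.82e-05 by limma), 10.8-fold in C3H (3.43, adjusted p = 6.42e-07) and 13.7-fold in F1 (3.78, adjusted p = 1.33e-07). Without the arrays that stand apart the log2 change was 3.32 in B6 and 3.54 in C3H, so the B6 value rests in part on its vehicle replicate 1. At 2 h the Cfb level was 0.49, 0.48 and 0.69 on B6 arrays, 1.47, 1.32 and 0.90 on C3H arrays and 0.91, 0.86 and 0.43 on F1 arrays. These overlapped vehicle in C3H and F1, and in B6 the log2 change of −0.93 did not pass (adjusted p = 0.0722). That value rested on B6 vehicle replicate 1: it was −0.11 without it (adjusted p = 0.748), and −1.37 without replicate 2 (adjusted p = 0.0126). The difference between strains in the 24 h response did not pass for any pair, with an interval of −0.33 to 2.20 for C3H minus B6, 0.02 to 2.54 for F1 minus B6 and −0.92 to 1.61 for F1 minus C3H (log2, 95%, not adjusted for the number of genes).

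C2, the neighbour of Cfb, went the other way. Its level was 1.32, 1.73 and 1.44 on B6 24 h arrays, against 3.79, 2.74 and 2.74 in B6 vehicle. In C3H it was 2.22, 2.11 and 2.18 at 24 h, against 2.95, 2.49 and 3.36 in vehicle. In F1 it was 1.92, 1.59 and 1.87 at 24 h, against 3.04, 2.47 and 2.50 in vehicle. No 24 h array overlapped vehicle in its strain. C2 fell by 1.59 on the log2 scale in B6 (SE 0.26, adjusted p = 1.83e-05 by limma), by 0.76 in C3H (adjusted p = 0.0154) and by 0.87 in F1 (adjusted p = 0.00611). The C3H call was lost without C3H vehicle replicate 3 (adjusted p = 0.0972), with median scaling, where the log2 change was −0.57 (adjusted p = 0.0701), and with normexp background correction (adjusted p = 0.0668). The F1 call was also lost with normexp (−0.68, adjusted p = 0.113). The second C2 probe, 491 bases away, gave −1.89, −0.69 and −0.92, each past the test. The liver list was likewise lower at 24 h (15, 14 and 12 of its 15 genes in B6, C3H and F1), and C2 is a liver product, so the 2 moved together, and the part of liver RNA in the C2 value was not tested. At 2 h no C2 change passed with the first probe. The second probe fell by 0.61 in B6 (adjusted p = 0.0309). The first-probe change in B6 passed with quantile normalization (−0.69, adjusted p = 0.0251) and with the mean of its probes (−0.61, adjusted p = 0.0409). With 1 array left out it ranged from −0.78 to −0.25 (adjusted p from 0.0282 to 0.409).

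C3, the component on which all routes meet, was at 6.39, 6.26 and 6.25 on B6 24 h arrays, against 7.20, 5.14 and 5.70 in B6 vehicle. In C3H it was 6.95, 6.93 and 6.89 at 24 h, against 5.59, 5.21 and 6.14 in vehicle. In F1 it was 6.73, 6.71 and 6.66 at 24 h, against 6.03, 5.03 and 5.23 in vehicle. All 24 h arrays lay above vehicle in C3H and F1, while in B6 1 vehicle array lay above them all. C3 rose 2.42-fold in C3H (log2 change 1.28, SE 0.37, adjusted p = 0.00481 by limma) and 2.41-fold in F1 (1.27, adjusted p = 0.00475). With normexp the C3H call was lost (1.19, adjusted p = 0.07). In B6 the log2 change was 0.28 and did not pass (adjusted p = 0.512). Without B6 vehicle replicate 1 it was 0.88 and passed (adjusted p = 0.0134). The B6 response did not differ from the others beyond error, with adjusted p = 0.196 for C3H minus B6 and 0.333 for F1 minus B6. The second C3 probe, 20895 bases away, gave 0.37 in B6, 1.76 in C3H and 1.69 in F1 at 24 h, and passed in C3H and F1.

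Vehicle arrays spread widely for C3, and the 24 h arrays did not. The SD of the C3 level was 0.08 at 24 h against 1.06 in vehicle in B6, 0.03 against 0.47 in C3H, and 0.04 against 0.53 in F1 (n = 3 each). The C3H vehicle array with the most C3, replicate 3, also had the most C2 (3.36) and Cfb (1.36), a liver list mean of 1.24, a mesothelium and fat list mean of 0.93 against −1.19 and −1.58 on replicates 1 and 2, and 3.64 for the adipocyte gene Fabp4, against 0.35 and 0.27 there. The F1 vehicle array with the most C3, replicate 1, had the most C2 (3.04) and Cfb (1.24), with Fabp4 at 5.35 against 3.22 and 3.92, and a liver list mean of 0.17 against 0.13 and 0.43. In B6 vehicle Fabp4 was at 4.67, 4.72 and 3.48 on replicates 1, 2 and 3, and replicate 2, with the most Fabp4, had the least C3. Wt1, of the same list, was at 2.33, 2.44 and 2.32 in B6 vehicle. It was at 2.23, 2.19 and 2.32 in C3H vehicle and 2.20, 2.23 and 2.20 in F1 vehicle. The part of attached fat or liver RNA in the C3 level was not tested. At 2 h C3 was at 5.03, 5.47 and 5.59 on B6 arrays, 6.12, 5.46 and 5.74 on C3H arrays and 5.87, 4.98 and 5.35 on F1 arrays, and no change from vehicle passed, though the B6 value passed without B6 vehicle replicate 2 (−1.08, adjusted p = 0.0158).

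Cfi rose together with Cfb at 24 h. Its level was 1.67, 1.51 and 1.53 at 24 h in B6, against 0.38, −0.42 and −0.36 in vehicle. In C3H it was 2.19, 2.00 and 2.16 at 24 h, against −0.40, −0.61 and −0.33 in vehicle. In F1 it was 1.54, 1.99 and 1.61 at 24 h, against −0.35, −0.50 and −0.76 in vehicle. The groups were far apart in each strain. The rise was 3.26-fold in B6 (log2 change 1.70, SE 0.17, adjusted p = 2.19e-08 by limma), 5.91-fold in C3H (2.56, adjusted p = 9.51e-11) and 4.75-fold in F1 (2.25, adjusted p = 4.07e-10). The C3H response was larger than the B6 response by 0.86 log2 units (SE 0.24, adjusted p = 0.018 for the difference). This difference was 0.64 and did not pass with normexp background correction (adjusted p = 0.399). It was 0.57 without the 3 arrays that stand apart (adjusted p = 0.0484). C3H vehicle and 24 h arrays shared no slide, so slide and E2 cannot be told apart in this difference. The liver list mean was 1.73 to 3.59 in B6 vehicle and 0.16 to 1.24 in C3H vehicle. The part of liver RNA in the Cfi difference was not tested. At 2 h Cfi was at −1.06, −0.63 and −0.90 in C3H, and fell by 0.42 on the log2 scale (adjusted p = 0.0406 by limma). That call was lost when any of 4 of the 6 arrays was left out, with adjusted p up to 0.158, and without the 3 arrays (adjusted p = 0.0626). The 2 h changes in B6 (−0.25) and F1 (−0.34) did not pass, and the F1 change passed without the 3 arrays (adjusted p = 0.0285).

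Cd55 was the member that rose at both times. Its level was −0.80 to −0.44 in B6 vehicle, −0.44 to −0.26 at 2 h and 0.06 to 0.33 at 24 h. In C3H it was −0.84 to −0.50 in vehicle, −0.22 to 0.03 at 2 h and 0.59 to 0.77 at 24 h. In F1 it was −0.87 to −0.42 in vehicle, −0.28 to −0.10 at 2 h and 0.42 to 0.62 at 24 h. The 24 h arrays lay above the 2 h arrays in each strain, and the 2 h arrays lay above vehicle in C3H and F1. At 24 h the rise was 1.79-fold in B6 (log2 change 0.84, SE 0.12, adjusted p = 2.28e-06 by limma), 2.48-fold in C3H (1.31, adjusted p = 6.75e-09) and 2.19-fold in F1 (1.13, adjusted p = 3.96e-08). At 2 h it was 1.21-fold in B6 (adjusted p = 0.0492), 1.49-fold in C3H (adjusted p = 0.000269) and 1.38-fold in F1 (adjusted p = 0.0019). The B6 call at 2 h was lost when any of 5 of the 6 arrays was left out, with adjusted p up to 0.197, and the B6 and F1 calls were lost with normexp (adjusted p = 0.215 and 0.12).

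The second Cd55 probe also rose at both times but kept a different time course. Its log2 change at 2 h was 0.68 in B6, 0.90 in C3H and 0.90 in F1, and at 24 h it was 0.38, 0.85 and 0.71, each past the test. By the first probe Cd55 rose further between 2 h and 24 h, by 0.56, 0.73 and 0.67 in B6, C3H and F1. By the second probe the same step was −0.31 in B6 (adjusted p = 0.0133), −0.05 in C3H (adjusted p = 0.66) and −0.19 in F1 (adjusted p = 0.121). The direction between 2 h and 24 h thus turned with the probe, while the rise over vehicle did not. Cd55b, a neighbouring near copy of Cd55, rose by 0.53 to 0.76 at 2 h and 0.79 to 1.22 at 24 h, from a dim probe that was well above background on 1 to 2 of 3 vehicle arrays in each strain, and cross-hybridisation between the copies was not tested.

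**Figure D4:**
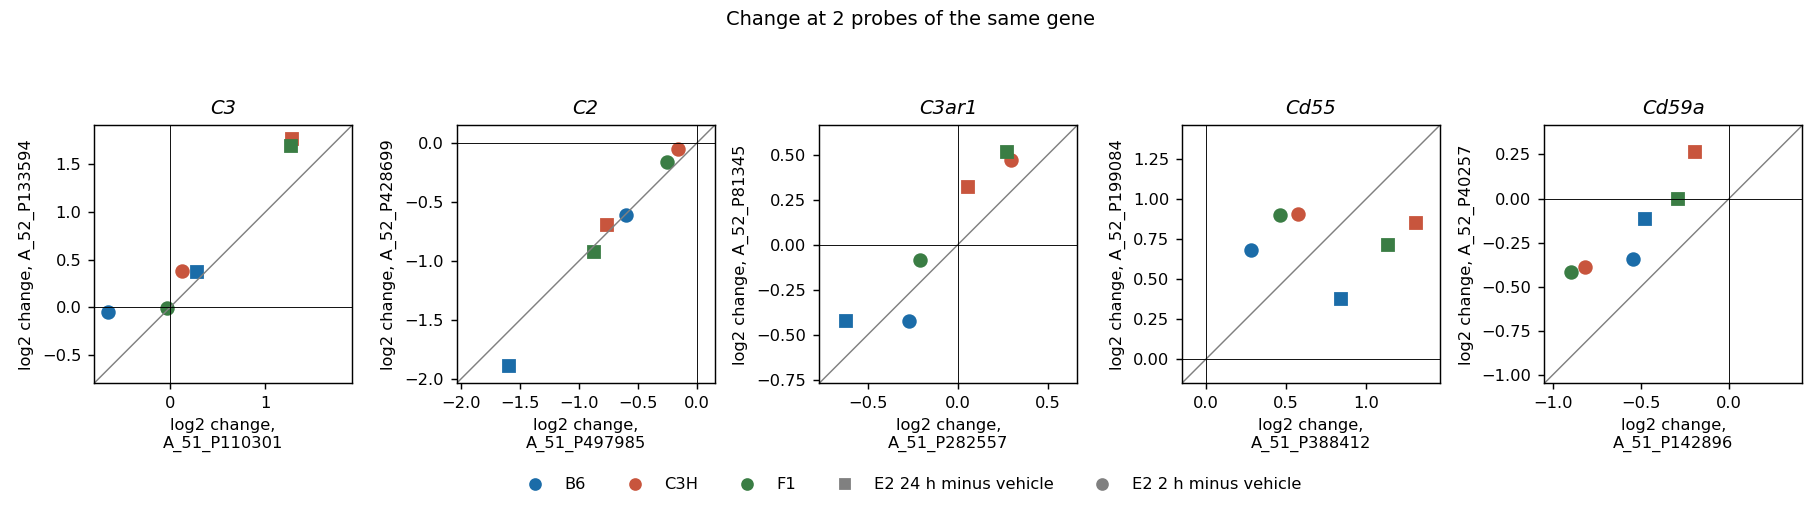
Log2 change relative to vehicle at the probe used (horizontal axis) and at a second probe (vertical axis) of the 5 members with more than 1 probe above background, with 24 h as squares and 2 h as circles. The grey line marks equal change. The C2 points lie near the line, the Cd55 points at 2 h lie above it and at 24 h below it, and the Cd59a points all lie above it.

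In every condition the Cd59a level was highest in C3H and lowest in B6. In vehicle its level was 2.21, 2.11 and 2.15 in C3H, 1.86, 1.79 and 1.84 in F1, and 1.11, 1.19 and 1.24 in B6. The groups did not overlap, and F1 lay between its parents, nearer to C3H. C3H exceeded B6 by 1.96-fold (log2 difference 0.97, SE 0.06, adjusted p = 9.08e-11 by limma), F1 exceeded B6 by 1.57-fold (0.65, adjusted p = 2.67e-07), and F1 was below C3H by 0.33 log2 units (adjusted p = 0.00103). The second probe, 458 bases away, gave 0.98, 0.67 and −0.30 for the same 3 comparisons, each past the test. With normexp the calls of F1 against B6 (0.57, adjusted p = 0.166) and F1 against C3H (−0.35, adjusted p = 1) were lost. After E2 the order held without overlap, with group means at 2 h of 1.34 ± 0.07 in C3H, 0.93 ± 0.09 in F1 and 0.64 ± 0.12 in B6, and at 24 h of 1.96 ± 0.06, 1.54 ± 0.04 and 0.71 ± 0.03 (SD, n = 3 each). The levels after E2 were not tested between strains. In no condition did a slide hold arrays of different strains. In the F1 vehicle comparisons slide and strain cannot be told apart.

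Cd59a was lower at 2 h than in vehicle in each strain. The 2 h level was 0.76, 0.52 and 0.64 on B6 arrays, 1.27, 1.33 and 1.41 on C3H arrays and 1.03, 0.87 and 0.89 on F1 arrays, all below the vehicle arrays of the strain. Cd59a fell by 0.54 on the log2 scale in B6 (SE 0.06, adjusted p = 1.75e-07 by limma), by 0.82 in C3H (adjusted p = 3.55e-10) and by 0.90 in F1 (adjusted p = 7.52e-11). The second probe fell by 0.34, 0.39 and 0.41. Stroma and liver markers were lower at 2 h as well. In each strain 9 of 10 stroma genes were lower and none higher, with list means of −1.05 to −0.62 at 2 h against 0.06 to 0.39 in vehicle, and 13, 9 and 7 of 15 liver genes were lower in B6, C3H and F1. The part of either list's cells in the 2 h changes of Cd59a was not tested. At 24 h the first probe fell by 0.48 in B6 (adjusted p = 7.29e-07), 0.19 in C3H (adjusted p = 0.00928) and 0.29 in F1 (adjusted p = 0.000292). The second probe gave −0.12 in B6 and −0.01 in F1, neither past the test, and rose by 0.27 in C3H (adjusted p = 0.0125). The median of all genes in C3H at 24 h was −0.16, so the first-probe value there is close to that of genes at large, and with median scaling it was near 0 (adjusted p = 0.98). The F1 call was also lost with median scaling (−0.09, adjusted p = 0.269), no scaling (adjusted p = 0.305) and normexp (adjusted p = 0.427). The B6 call was lost with normexp (adjusted p = 0.105). The 24 h fall of Cd59a therefore depended on the probe and the processing in all 3 strains.

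The C1q genes and C3ar1, which macrophages express, gave no E2 call in any strain. C1qa was at 1.33, 1.27 and 1.52 at 24 h and 2.81, 1.44 and 1.50 in vehicle in B6. In C3H it was at 3.03, 1.32 and 1.37 at 2 h and 1.51, 1.39 and 1.64 in vehicle. C1qb in C3H was at 1.87, 0.00 and −0.19 at 2 h, against −0.08, −0.31 and 0.03 in vehicle. C3ar1 in C3H was at −1.63, −3.69 and −4.04 at 2 h, against −3.38, −3.58 and −3.29 in vehicle. The first value of each E2 2 h trio is the array whose macrophage list stands at 0.87, and the macrophage gene Aif1 read 5.04, 1.61 and 1.56 on the same 3 arrays. The part of this array's macrophage RNA in the C1q levels was not tested.

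C1q was called at 24 h in F1 once those arrays were left out. C1qb was at 0.72, 0.25 and 0.81 on F1 24 h arrays, against 0.08, 0.12 and −0.07 in vehicle, without overlap. The log2 change was 0.55 for C1qb and 0.36 for C1qa. Neither passed in the main fit of all arrays (adjusted p = 0.202 and 0.349 by limma). Both passed without the 3 arrays, none of them F1 (adjusted p = 0.00163 and 0.00757), since the change was the same and the pooled spread was smaller. Replicate 1 of B6 vehicle and of C3H E2 2 h were themselves high for both genes. Both genes also passed with array weights (adjusted p = 0.013 and 0.0413) and in a fit of F1 alone (0.00903 and 0.0258). The macrophage list mean in F1 was −0.10 to 0.25 at 24 h against −0.30 to −0.16 in vehicle. C3ar1 changed by 0.27 there (adjusted p = 0.578).

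In vehicle uterus 2 members differed between C3H and B6 and 2 between F1 and B6, Cd59a (above) and C1qb, and 1, Cd59a, between F1 and C3H. The share of all genes called in either direction was 24.1%, 12.5% and 14.3% for these comparisons. C1qb was at −0.08, −0.31 and 0.03 in C3H vehicle and 0.08, 0.12 and −0.07 in F1 vehicle, against 2.15 and 0.72 on the 2 B6 vehicle arrays that measured it, since its spot on replicate 2 carried an outlier mark. The log2 difference was −1.56 for C3H minus B6 (adjusted p = 0.00956 by limma) and −1.40 for F1 minus B6 (adjusted p = 0.0348). Without B6 vehicle replicate 1 the values were −0.84 (adjusted p = 0.223) and −0.68 (adjusted p = 0.413), resting on 1 B6 array. With the outlier spot kept, they were −1.37 (adjusted p = 0.01) and −1.21 (adjusted p = 0.0393). The C1qb call for C3H minus B6 was lost with normexp (adjusted p = 0.086) and with slide as a fixed block (0.587). That for F1 minus B6 was lost with normexp (0.466) and on leaving out any F1 vehicle array (adjusted p up to 0.088). F1 vehicle arrays shared no slide with those of B6 or C3H, so slide and strain cannot be told apart in the F1 comparisons.

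The size of the E2 response differed between strains for few members. Slide and E2 cannot be told apart in the C3H response at either time, nor in the F1 response at 24 h. At 2 h no member's response differed between any pair of strains, where 2.16% (C3H minus B6), 0.599% (F1 minus B6) and 0.229% (F1 minus C3H) of all genes did. The unadjusted p was under 0.05 for 3 of these 27 member comparisons, and 2 passed with array weights. At 24 h the second probes of C2 (1.20 for C3H minus B6, adjusted p = 0.0174) and Cd55 (0.47, adjusted p = 0.0323) passed, while their first probes did not. By the probes used, 2 of 9 members, Cfi and Cd59a, differed between C3H and B6 at 24 h, where 18.7% of all genes did. None differed between F1 and B6 (1.9% of all genes) or between F1 and C3H (3.7%), with an unadjusted p under 0.05 for 4 of those 18 comparisons. For Cd59a the fall at 24 h was smaller in C3H than in B6 by 0.28 log2 units (SE 0.09, adjusted p = 0.0273), a call that was lost with median scaling (adjusted p = 0.0982), no scaling (adjusted p = 0.134) and normexp (adjusted p = 0.878), and on leaving out any of 8 of the 12 arrays (adjusted p up to 0.0714).

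Between 2 h and 24 h, 14 member responses were higher and 3 lower over the 3 strains. B6 had 4 of 9 higher and 1 lower, and C3H and F1 5 higher and 1 lower each. Of all genes, B6 had 35.5% higher and 33.1% lower, C3H 33.9% higher and 36.7% lower, and F1 37.6% higher and 30.8% lower. C3, Cfb, Cfi and, by its first probe, Cd55 were higher at 24 h than at 2 h in each strain, Cd59a was higher in C3H (0.62) and F1 (0.61), and C2 was lower in each. The C3 step was 0.93 in B6 (adjusted p = 0.0307 by limma), 1.15 in C3H and 1.30 in F1. The B6 call was lost when any of 4 of its 6 arrays was left out, and the second C3 probe gave 0.42 there, not past the test. It was also lost with quantile normalization (adjusted p = 0.189), the mean of its probes (0.119) and a fit of B6 alone (0.104). In B6 and C3H the C3 call was lost with slide as a fixed block (adjusted p = 0.171 and 0.0909) and with normexp (0.071 and 0.148). No slide held both 2 h and 24 h arrays of F1, so slide and time cannot be told apart in the F1 steps. The C2 step was lost on leaving out any of the 6 arrays in C3H (−0.60) and any of 5 in F1 (−0.62). It was also lost in C3H without the 3 arrays that stand apart (−0.52, adjusted p = 0.0959). In F1 the steps of C1qa (0.31, adjusted p = 0.0207) and C1qb (0.38, adjusted p = 0.0203) passed without those 3 arrays. These steps and the vehicle comparisons share their E2 arrays.

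The rest of the complement system was described by lists of genes that were measured but are not members. Classical and lectin genes were mostly lower at 24 h. Of the 14 measured, B6 had 12 lower and 0 higher, C3H had 11 lower and 0 higher, and F1 had 10 lower and 1 higher, where 37.1%, 40.1% and 36.7% of all genes were lower. C4b, the convertase partner of C2, fell by 1.96 in B6, 1.16 in C3H and 0.88 in F1 on the log2 scale. Its near copy C4a may share signal with this probe, so the value is uncertain. Mbl2, a mannose-binding lectin of liver, fell by 3.24, 2.45 and 1.54. Mbl1 was at least 3.19-fold lower at 24 h in B6, where no 24 h array was above background, and Colec10 was at least 1.69-fold lower there. Fcna, a ficolin of macrophages, was the gene that rose, by 1.62 in F1. Of the alternative-route genes, Cfd and Cfp did not pass at either time, and Cfd, which fat cells secrete, ranged from 0.06 to 3.98 within C3H vehicle.

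Terminal genes, regulators and receptors were read beside the same shares of all genes, 36.7% to 40.1% lower and 27.1% to 31.8% higher over the strains. The regulator and receptor counts were near those shares. Hc, which encodes C5, fell by 2.65 in B6, 2.71 in C3H and 2.48 in F1 at 24 h, and C8a was at least 2.19-fold lower in B6. C8g fell by 1.17 and C6 by 0.95 in B6. All 4 terminal genes were lower in B6, and 1 of 4 in C3H and in F1. Among 12 regulators B6 had 3 higher and 6 lower, C3H had 2 higher and 6 lower, and F1 had 3 higher and 5 lower. Clu, or clusterin, which binds the terminal complex, rose by 1.59, 1.87 and 1.86. Serping1, the C1 inhibitor, fell by 1.66, 0.76 and 1.07, and Cpn2, a subunit of carboxypeptidase N, was at least 5.02-fold lower in B6. Among 8 receptors B6 had 1 higher and 2 lower, C3H had 2 higher and 4 lower, and F1 had 2 higher and 3 lower. C1qbp, a mitochondrial protein that binds C1q, rose by 1.09, 0.65 and 0.86, and Itgax, a chain of complement receptor 4, fell by 1.19 in B6 and 0.78 in C3H. Cr2, complement receptor 2, fell by 0.97 in C3H and 0.47 in F1. Vsig4, a macrophage receptor for C3b, rose by 1.80 in C3H (adjusted p = 0.0119), where its probe was well above background on 3 arrays at 24 h and 1 in vehicle. In F1 it was called higher but was above background on 1 array at 24 h and 0 in vehicle, so no fold is given. The liver list moved with the liver-made genes Mbl2, Hc, C8a and Cpn2, and its part in their values was not tested. Without the 3 arrays, 3 of 4 terminal genes were lower in C3H and 2 of 4 in F1, 1 of the 2 alternative-route genes was higher in each of these strains, and the classical and lectin counts were the same.

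**Figure D5:**
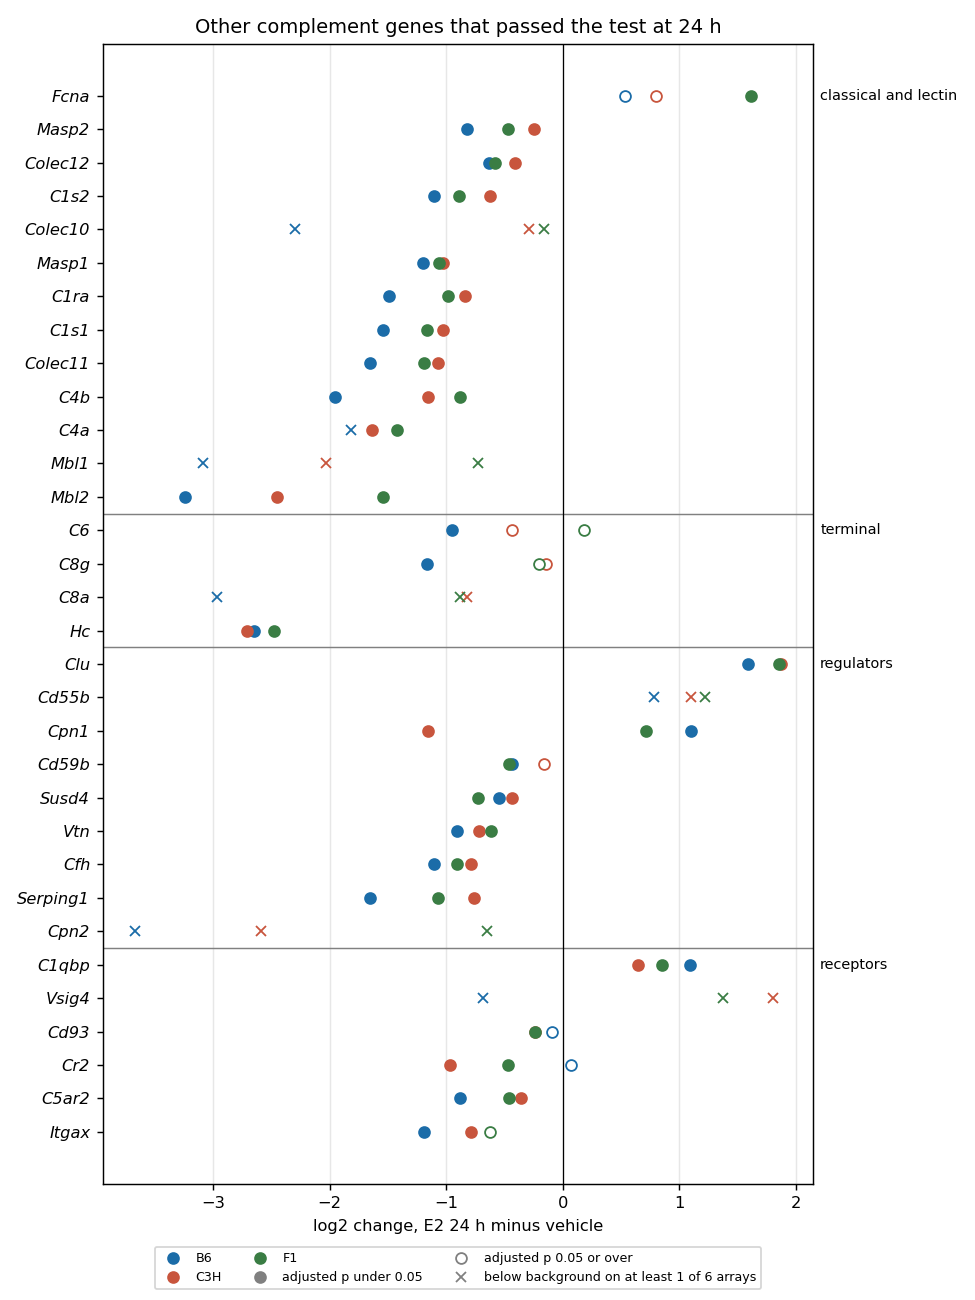
Log2 change at 24 h relative to vehicle (horizontal axis) of the 32 other complement genes that passed the test in at least 1 strain, grouped by role and ordered by mean change. Crosses mark genes below background on at least 1 of the 6 arrays of a comparison. Clu, C1qbp and Cd55b lie to the right in each strain, and most classical, lectin and terminal genes lie to the left.

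Genes with the most similar pattern over the 9 group means were read from 15990 named genes outside the complement lists, as a description. For Cfb they were Esyt1 (Pearson r = 0.998), Selenow and Erap1 (both 0.993), and for Cfi they were Fads2 (0.994), Pafah1b3 (0.989) and Kif18a (0.989). For C3 they were Ms4a4c (0.980), Nxpe5 (0.980) and Ly6i (0.978), and for C2 Plxna4 (0.980) and Atxn7l1 (0.977). For Cd55 they were Necap2 (0.982), Acer3 (0.979) and Emc3 (0.975), and for Cd59a Rwdd3 (0.990), Klf1 (0.977) and Usf1 (0.975). For C1qa they were Btk (0.952), Pld4 (0.945) and Gtsf1l (0.930), for C1qb H2-D4 (0.922), Itih1 (0.910) and Il2rg (0.910), and for C3ar1 Dhrs7c (0.945), Btk (0.943) and Fgr (0.939). Btk, a kinase of B and myeloid cells, thus stood near both C1qa and C3ar1. Gtsf1l and Dhrs7c were dim, with group means of −8.56 to −6.44 and −8.29 to −6.70, so their patterns are uncertain. The group means share their arrays, including those that stand apart.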

How the data were processed

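Whole-uterus RNA (500 ng per sample, 17 h hybridisation) was read on 1-colour Agilent arrays, one per sample. The deposited files hold spot intensities: the processed signal had its background subtracted by Agilent Feature Extraction (version 9.5, per the submitters' processing notes). Levels were log2 of the deposited processed intensity minus the array's 75th percentile. Control spots and spots marked as outliers were left out. Of 41174 probes, 32901 were well above background on at least 1 group's arrays and gave 21866 genes, and a gene with several probes (7487) took the one with the highest mean signal. All 27 arrays entered 1 limma fit (limma 3.58.1, R 4.3.3) with 9 groups and 18 contrasts. Every adjusted p in the text is limma's with Benjamini-Hochberg adjustment over all genes, and calls are those under 0.05. The E2 2 h and E2 24 h comparisons of a strain share its vehicle arrays. The fit was tested on simulated data. The array number limits the precision. Alternatives were background correction, scaling, filters, probes, slide, replicate block, array weights and each array left out. The outlier spots kept and the 3 arrays left out were added after seeing the data. Named genes are all members, the up to 4 called genes with the largest change in each complement list, the 3 genes nearest in pattern to each member (1 of those of C2 is not reported here), and the 2 brightest of each marker list used; genes outside this rule (Fabp4, Aif1, Fcna, Cfd and Cfp) were named after their values were seen. The members and lists were chosen with earlier results of these data known.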

Additional observations from a re-analysis of the deposited data

Results flagged for a closer look

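The log2 response of Cfi at 24 h differed between strains, being larger in C3H than in B6 by 0.86 (SE 0.24, adjusted p = 0.018 by limma for the difference). The response itself was 2.56 in C3H and 1.70 in B6. The 24 h response of Cd59a also differed, by 0.28 for C3H minus B6 (SE 0.09, adjusted p = 0.0273). This call was lost with normexp, median scaling and no scaling, and on leaving out any of 8 of the 12 arrays. The Cfi call was lost with normexp. C3H vehicle and C3H 24 h arrays shared no slide, so slide and E2 cannot be told apart in either difference. The Cd59a response was −0.19 in C3H and −0.48 in B6.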

How the results depend on the processing

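Outside of leaving out 1 array or taking a second probe, 1993 of 2070 member values kept their side of the threshold. Of the rest, 49 lost a call, 27 gained one and 1 called value turned its sign. With 1 array left out, 1242 of 1296 kept their side, 38 lost a call and 16 gained one. Called values counted as kept also kept their direction, while a turn of sign between 2 values without a call was counted as kept. The count of members called in B6 at 2 h (2) was 1 with normexp, without the filter on dim probes, with slide as a fixed or a random block, and in a fit of B6 alone, and ranged from 1 to 4 with an array left out. With normexp, 3 members were called in C3H at 24 h (6 otherwise), 1 in F1 at 2 h (2), and 1, 0 and 0 between vehicle groups for C3H against B6, F1 against B6 and F1 against C3H (2, 2 and 1). For C3H against B6 slide as a fixed block gave 1, and leaving out an array gave 1 to 2, as it did for F1 against B6. Array weights gave 2 for F1 against C3H, and 2 for strain differences in the 2 h response (0 otherwise, and 0 to 1 with an array left out). Strain differences in the 24 h response (2) were 0 with normexp, 1 with median scaling, 1 with no scaling and 4 with the mean of all probes, and 1 to 3 with an array left out. The called values that turned were Cd59a in C3H at 24 h and the step of Cd55 between 2 h and 24 h. Cd59a was at 0.0368 with the mean of its probes and 0.27 with its second probe. The Cd55 step with its second probe was −0.31 in B6, −0.0536 in C3H and −0.19 in F1. The cause was not tested. The all-gene median at 24 h was 0.18 with median scaling (−0.05 otherwise) in B6, 0.03 (−0.16) in C3H and 0.17 (−0.03) in F1. The split of genes was then 9213 higher and 5941 lower for B6 (otherwise 6742 and 8119), 7708 and 6357 for C3H (5919 and 8760), and 9096 and 6080 for F1 (6950 and 8021). Normexp called 6912, 4816 and 7035 genes at 24 h for B6, C3H and F1, where the processed signal gave 14861, 14679 and 14971. Replicate numbers did not pair the samples: over 27 pairs the correlation of same-numbered deviations was −0.124 to 0.168. With the replicate block, C2 in B6 at 2 h (−0.60, adjusted p = 0.0431 by limma) and the strain difference of Cd55 at 24 h for C3H minus B6 (0.47, adjusted p = 0.0471) gained a call, and no count of members moved by over 1.5 times.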
